A study of Mus musculus with 4 samples.

Results

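Isolated 5hmC peaks of chondrocytes are peaks of the merged day 20 list that lie more than 100 kb, edge to edge, from both the previous and the next peak of that list on their chromosome. On chromosomes 1 to 19 this held for 769 of 56105 peaks (1.37%), out of 56698 in the whole list. They were chosen by their positions, so their number, spacing and spread over chromosomes are descriptions only. The cells were ATDC5, an established mouse line derived from a teratocarcinoma, kept either as chondroprogenitors or differentiated towards cartilage with insulin, transferrin and selenite. Of 4 libraries of DNA captured for 5hmC, 2 came from chondroprogenitors at day 0 and 2 from chondrocytes, labelled day 19 and day 20. Every group thus shares 1 line and differs in days of differentiation. The deposited lists hold peak positions and an assigned gene for 1 merged list per stage, without height, fold or p-value per peak. Replicate spread could therefore not be measured, read depth is unknown, and no p-value is given. The intervals below are 95% intervals that cover counting error only. RNA was not measured in these files, so the chondrocyte label could not be checked against marker genes.

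5-hydroxymethylcytosine is made from 5-methylcytosine by the TET dioxygenases, mostly at CG dinucleotides. In differentiated cells it accumulates in the bodies of active genes and at enhancers, and it is usually low in the middle of active CG-rich promoters. Regions poor in genes, or filled with genes of other tissues, tend to carry little of it. A peak in DNA from a whole culture can come from strong marking in few cells or weak marking in many, and these cannot be told apart here.

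At the few isolated peaks that lay at a gene start, a part of the marked sequence could be read. Of the 738 isolated peaks on the chromosomes whose promoters were used here, 11 contained a listed start of a protein-coding gene, and 4 more reached into the 250 bases before a start without containing it. The listed starts did not cover every gene of these chromosomes. The isolated peak inside Atp6v1h, for example, had its nearest listed start 13061 kb away. The 250 bases before the start are printed 5′ to 3′ on the gene's strand (RefSeq, GRCm38.p6), with the bases that the peak covers in capitals. The first 4 belong to genes whose start lay inside the peak, and the last 2 to genes whose start lay outside it. They are shown to compare how many CG dinucleotides the marked bases held.
Lrrc14b: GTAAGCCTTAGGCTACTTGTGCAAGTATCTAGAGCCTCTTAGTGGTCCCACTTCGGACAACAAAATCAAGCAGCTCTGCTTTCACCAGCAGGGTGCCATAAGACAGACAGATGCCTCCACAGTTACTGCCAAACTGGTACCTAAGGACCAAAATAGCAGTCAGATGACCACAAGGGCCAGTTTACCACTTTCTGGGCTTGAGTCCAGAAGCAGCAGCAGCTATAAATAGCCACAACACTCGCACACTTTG
Azgp1: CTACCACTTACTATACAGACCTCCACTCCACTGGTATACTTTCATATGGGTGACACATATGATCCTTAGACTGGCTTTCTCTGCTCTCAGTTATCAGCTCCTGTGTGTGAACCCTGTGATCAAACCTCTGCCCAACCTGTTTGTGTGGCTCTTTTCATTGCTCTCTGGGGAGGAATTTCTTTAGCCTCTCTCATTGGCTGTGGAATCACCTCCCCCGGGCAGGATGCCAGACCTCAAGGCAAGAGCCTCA
Itgax: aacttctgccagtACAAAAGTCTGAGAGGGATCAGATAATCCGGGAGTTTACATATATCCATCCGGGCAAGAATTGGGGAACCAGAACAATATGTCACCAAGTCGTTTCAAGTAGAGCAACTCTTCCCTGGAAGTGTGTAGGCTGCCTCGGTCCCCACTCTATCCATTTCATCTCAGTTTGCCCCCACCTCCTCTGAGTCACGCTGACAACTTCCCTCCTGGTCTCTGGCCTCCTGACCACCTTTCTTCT
Zfp74: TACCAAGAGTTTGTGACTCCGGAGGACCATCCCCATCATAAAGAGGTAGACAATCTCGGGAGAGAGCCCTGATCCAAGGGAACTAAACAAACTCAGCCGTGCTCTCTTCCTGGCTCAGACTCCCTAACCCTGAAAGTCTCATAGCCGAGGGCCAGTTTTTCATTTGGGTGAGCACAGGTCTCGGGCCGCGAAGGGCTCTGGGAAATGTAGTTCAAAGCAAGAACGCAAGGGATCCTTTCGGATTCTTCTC
Usp31: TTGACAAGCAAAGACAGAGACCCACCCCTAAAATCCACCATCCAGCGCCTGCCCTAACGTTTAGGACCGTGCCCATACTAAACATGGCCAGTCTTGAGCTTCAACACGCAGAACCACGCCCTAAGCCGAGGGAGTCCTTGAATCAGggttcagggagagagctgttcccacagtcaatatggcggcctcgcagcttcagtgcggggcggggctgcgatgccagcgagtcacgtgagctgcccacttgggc
Pyurf: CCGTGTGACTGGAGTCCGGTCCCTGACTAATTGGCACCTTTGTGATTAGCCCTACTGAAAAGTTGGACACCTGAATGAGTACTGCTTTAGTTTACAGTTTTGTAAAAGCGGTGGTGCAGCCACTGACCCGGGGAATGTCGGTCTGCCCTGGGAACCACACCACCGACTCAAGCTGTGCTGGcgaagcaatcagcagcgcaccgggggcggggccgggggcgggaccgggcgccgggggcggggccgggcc

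Where the start lay inside an isolated peak, the bases before it were poor in CG. The window of Lrrc14b, on the reverse strand (chr13:74364001-74364250), held 2 CG dinucleotides in 250 bases and was covered whole by a peak of 1327 bp (chr13:74363054-74364380), the widest of all isolated peaks. That of Azgp1, which encodes a secreted zinc-binding glycoprotein, lay on the forward strand (chr5:137981271-137981520) and held 1, under a peak of 779 bp. Itgax encodes the integrin chain CD11c of dendritic cells, and its window on the forward strand (chr7:128129300-128129549) held 5, all within the 237 bases covered. The zinc finger gene Zfp74, on the reverse strand (chr7:29954066-29954315), was the richest of the 11 with 9.

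The other 7 genes with a start inside an isolated peak held between 0 and 8 CG dinucleotides in their windows. Ugt1a7c, a UDP-glucuronosyltransferase gene, held 0, and Prl6a1 of the placental prolactin family and the B cell chemokine gene Cxcl13 held 2 each. Serpinb9d of the serine protease inhibitor family, the carboxylesterase gene Ces2g and the zinc finger gene Zfp788 held 3 each. In Zfp871, another zinc finger gene, all 8 lay in the 214 bases outside the peak, which reached only 36 bases into the window. The median over the 11 genes was 3, with 42.0% C plus G, and 9 of the 11 held 7 or fewer (81.8%, Wilson interval 52.3 to 94.9%). Other day 20 peaks gave a like picture, with a median of 5 over 428 genes whose start lay inside a peak and 7 or fewer in 74.5% (70.2 to 78.4%). Over all 16457 protein-coding genes with a window, the median was 10 and 42.8% held 7 or fewer (42.0 to 43.5%). A low CG count at starts inside a peak was thus found in isolated and other peaks, and is not particular to isolated ones.

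Where an isolated peak stopped short of the start, the window was richer in CG. Pyurf, to whose locus the authors gave the symbol Pigy, held 17 on the reverse strand (chr6:57692079-57692328), of which 11 lay in the 69 bases nearest the start, outside the peak. Usp31, a ubiquitin protease gene on the reverse strand (chr7:121707443-121707692), held 13, with 7 in the 104 bases outside the peak. L3mbtl1, which encodes a chromatin-binding protein, held 11, with 6 outside. The muscarinic receptor gene Chrm3 held 10, with 3 outside. Their median was 12, and 0 of 4 held 7 or fewer, against a median of 14.5 in 254 genes reached in the same way by other peaks and 27.2% (22.1 to 32.9%) with 7 or fewer. With 4 genes no difference between these groups can be read.

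**Figure D1:**
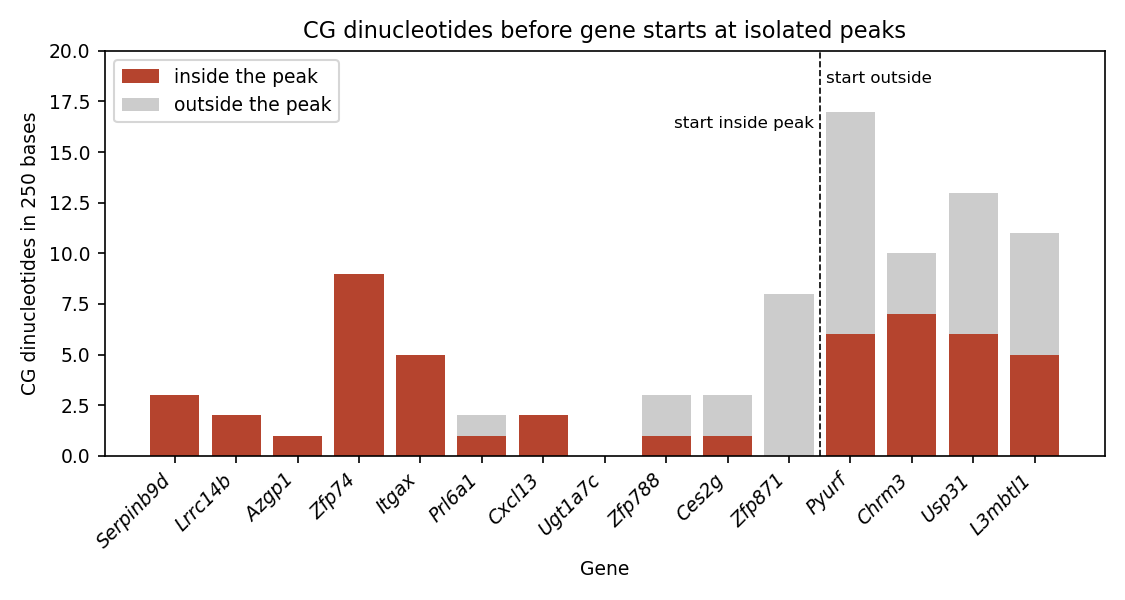
CG dinucleotides in the 250 bases before the start (vertical axis) of the 15 genes whose window or start an isolated day 20 peak overlapped (horizontal axis), split into those inside the peak (red) and outside it (grey). The 11 genes left of the dashed line, whose start lay inside the peak, held 0 to 9, and the 4 on the right held 10 to 17.

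Listed starts were met more often than their thin number around isolated peaks would give. From the number of protein-coding gene starts in the 100 kb on either side of each peak and the peak's own width, 2.30 isolated peaks would contain a start if starts were spread evenly, and 11 did (1.49% of 738, 0.834 to 2.65%), a ratio of 4.78. For the other day 20 peaks the same calculation gave 444 and the count was 432 (0.802%, 0.730 to 0.880%), a ratio of 0.973. The shares themselves differed by 0.689 percentage points (Newcombe interval 0.0280 to 1.85). Within 1 kb of a start lay 36 isolated peaks (4.88%, 3.54 to 6.68%), against 4.15% of other peaks (3.98 to 4.32%), and the interval of that difference ran from -0.614 to 2.54 points. Within 5 kb the shares were 10.8% (8.80 to 13.3%) and 11.3% (11.1 to 11.6%). The excess at the start itself rests on 11 peaks. Starts that were not listed entered neither the peaks nor the flanks, so the shares near a start can be too low. How far they would alter the ratios was not tested.

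By width, the 10 leading isolated peaks within 1 kb of a start began with Lrrc14b, Zfp871 (958 bp) and Azgp1. After these came Slc8a3, a sodium-calcium exchanger gene (696 bp), the ceramide synthase gene Cers4 (681 bp), which the authors list as Lass4, Prrg4 (643 bp) and Tram1l1 (601 bp). Arhgef4 (599 bp), Ces2g (596 bp) and Ugt1a7c (563 bp) completed them. Among these, Tram1l1 stood in the widest empty stretch, with its nearer neighbour 598.9 kb away, and Lass4 had a farther neighbour 2248 kb away. At the 36 peaks near a start the median width was 483 bp (449 to 534), against 430 bp over all isolated peaks.

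Isolated peaks were narrower than the rest. Their widths ran from 206 to 1327 bp with a median of 430 bp (interval of the median 419 to 438, quartiles 370 and 531). The 55333 other peaks on the same chromosomes with a readable end ran from 176 to 6583 bp, with a median of 595 bp (593 to 597, quartiles 462 and 789). The distributions overlap widely, and the difference lies in the medians and in the upper tail. Under 400 bp were 38.1% of isolated peaks (34.7 to 41.6%) and 13.5% of the others (13.3 to 13.8%), a difference of 24.6 points (21.2 to 28.1). Only 6 isolated peaks exceeded 1000 bp (0.780%, 0.358 to 1.69%), against 12.6% of the others (12.3 to 12.9%). None of the 769 exceeded 2000 bp, which allows a share of up to 0.497%, against 0.761% of the others (0.692 to 0.837%). Isolated peaks had the lower median on 19 of 19 chromosomes. The gap was smallest on chromosome 18, with 486 against 533.5 bp, and on chromosome 12, with 470 against 544 bp. It was widest on chromosome 17, with 396.5 against 632 bp.

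Beyond 5 kb, width fell with distance before the 100 kb limit was reached. The median was 627 bp (620 to 635) where the nearer neighbour was within 1 kb, 646 bp (641 to 651) at 1 to 5 kb, 575 bp at 10 to 20 kb and 476 bp (466 to 484) at 50 to 100 kb. Inside the isolated set it was 439.5 bp (429 to 452) at 100 to 200 kb, 415.5 bp (393 to 424) at 200 to 500 kb and 402 bp (380 to 436) in the 53 peaks beyond 500 kb. The widths thus changed gradually across the limit, with no step at it. Peaks with 1 empty side lay between, with a median of 492 bp in 4746. Just inside the limit were peaks assigned to Usp31 (404 bp, 100.108 kb), Ces1d (274 bp, 100.145 kb), B3gat1 (530 bp, 100.245 kb) and a pair in Nckap5 that are each other's neighbours (509 and 384 bp, 100.308 kb). Just outside were 2 unassigned peaks (345 bp at 99.904 kb and 637 bp at 99.997 kb), and peaks assigned to 4930556N09Rik (429 bp, 99.972 kb), Commd6 (347 bp, 99.981 kb) and Fam5b (443 bp, 99.997 kb).

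**Figure D2:**
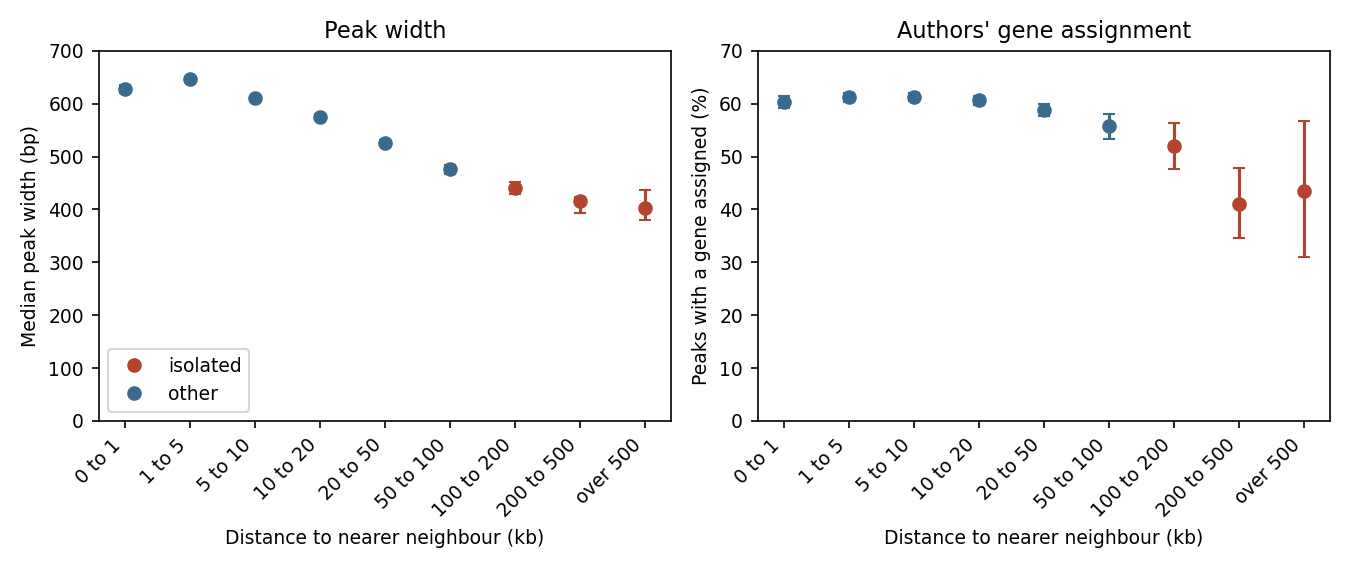
Median peak width in bp (left) and share of peaks with a gene assigned by the authors in percent (right) against the distance in kb to the nearer neighbouring day 20 peak, with isolated peaks in red and other peaks in blue. Bars are 95% intervals, and medians fell from 646 bp at 1 to 5 kb to 402 bp beyond 500 kb.

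The narrower shape held in every class of position compared. In peaks with a gene assigned by the authors, the medians were 435.5 bp (419 to 453) for 372 isolated peaks and 604 bp (601 to 607) for the others. In unassigned peaks they were 424 bp (412 to 435) and 582 bp (579 to 585). Within protein-coding genes they were 435 bp (419 to 452) and 606 bp (602 to 609). Among isolated peaks the medians in and outside genes differed by less than the width of their intervals.

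The widest isolated peaks sat both in genes and far from them. After Lrrc14b came Tcaim, which encodes a mitochondrial protein and which the authors list as D9Ertd402e, with 1268 bp on chromosome 9 (122836162 to 122837429). Nr3c2, the mineralocorticoid receptor, followed with 1219 bp on chromosome 8 (77023799 to 77025017), and Usp13, a ubiquitin protease, with 1085 bp on chromosome 3 (32935749 to 32936833). An unassigned peak of 1049 bp on chromosome 2 (12709165 to 12710213) lay 213.8 kb from the nearest protein-coding gene, Pter. Another of 1021 bp on chromosome 7 (39659247 to 39660267) lay 78.7 kb from Gm33989. Zfp871 was next with 958 bp, and then a peak of 945 bp assigned to Chpt1, an enzyme gene of phosphatidylcholine synthesis, 6.62 kb outside the nearest gene of the table, Mybpc1. Unassigned peaks of 930 bp on chromosomes 3 and 2 closed the 10 widest, 188.1 kb from Gm9733 and 37.5 kb from Caprin1. All 10 had their nearer neighbour within 231 kb. The narrowest isolated peak measured 206 bp, 245.6 kb from Lcorl.

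Distances to the nearer neighbour had quartiles of 118.0 and 241.0 kb and a median of 155.5 kb, against a median of 7.14 kb for other peaks. To the farther neighbour the median was 384.9 kb. Between consecutive peaks of the day 20 list on the 19 chromosomes there were 3142 gaps of over 100 kb. They added up to 1329 Mb, or 55.8% of the 2383 Mb between the first and last peaks of the chromosomes. Isolated peaks stand inside this sparse part of the genome. In all, 362 isolated peaks had a neighbour on each side that was not itself isolated, and the other 407 stood in runs of consecutive isolated peaks. The longest run had 7 peaks over 19.5 Mb of chromosome 14 (79590798 to 99137989), from Sugt1 to Pibf1. Of these 7, 5 lay in or nearest to the formin gene Diaph3, including 1 of 425 bp in the gene body.

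Chromosomes differed in how many of their peaks were isolated. Chromosome 12 had 59 of 1458 (4.05%), the highest share, followed by chromosome 14 with 45 of 1848 (2.44%). Chromosome 3 had the highest number, 64 of 3033 (2.11%). Chromosome 19 had the lowest share, 10 of 2061 (0.485%), with 33 of 4102 on chromosome 6 (0.804%) and 31 of 3827 on chromosome 11 (0.810%). This order is a description and carries no test.

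**Figure D3:**
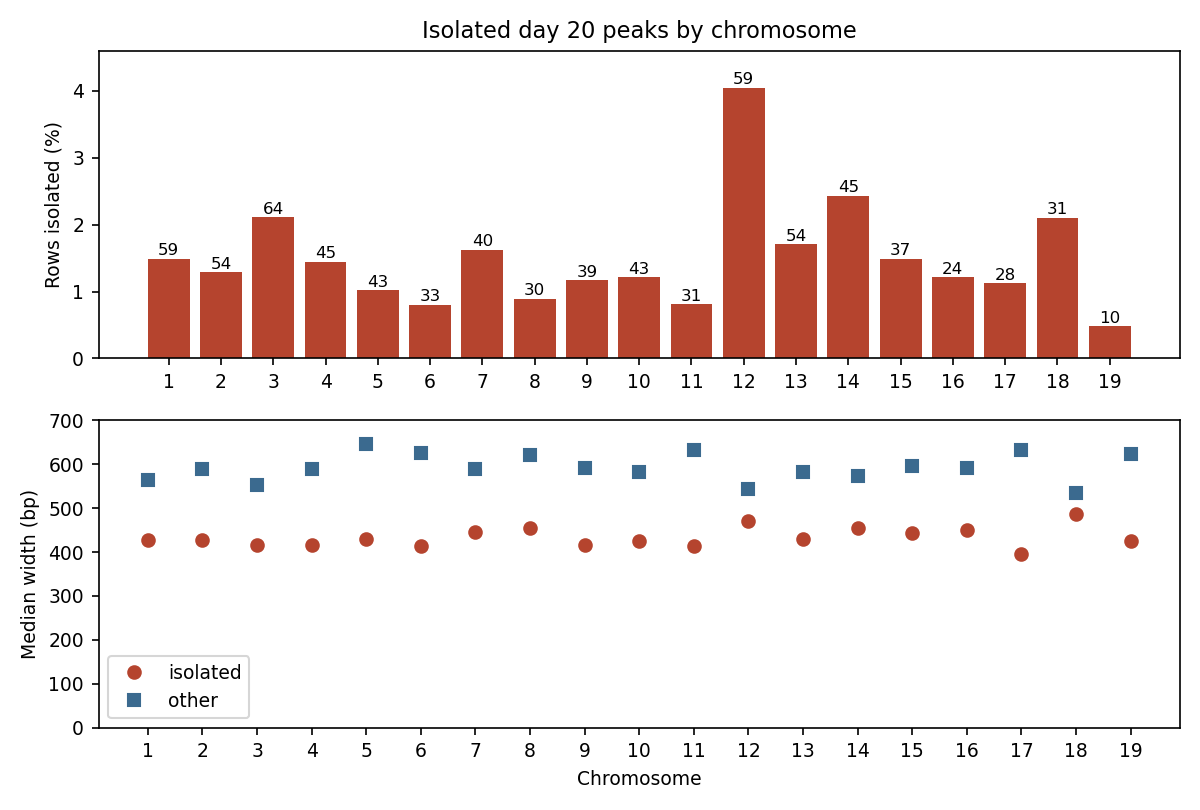
Share of day 20 peaks that were isolated, in percent, with their number above each bar (top), and median width in bp of isolated peaks (red circles) and other peaks (blue squares) (bottom), by chromosome. Chromosome 12 reached 4.05% and chromosome 19 0.485%, and every red circle lies below its blue square.

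The authors assigned a gene to isolated peaks less often. They did so for 372 of 769 (48.4%, 44.9 to 51.9%), against 60.5% of the 55336 other peaks (60.1 to 60.9%), a difference of -12.1 points (Newcombe interval -15.7 to -8.56). Isolated peaks had the lower share on 17 of 19 chromosomes. The exceptions were chromosome 1, with 57.6 against 57.4%, and chromosome 18, with 61.3 against 58.0%. Within the isolated set the share was 52.0% (47.6 to 56.3%) at 100 to 200 kb, 41.0% (34.6 to 47.8%) at 200 to 500 kb and 43.4% (30.95 to 56.7%) beyond 500 kb. Noncoding transcripts made up 18 of the 372 assignments (4.84%, 3.08 to 7.52%), against 5.57% (5.33 to 5.83%) in other peaks, a difference whose interval ran from -2.51 to 1.95 points.

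Position against the gene table showed the same direction. The midpoint lay in a protein-coding gene for 331 isolated peaks (43.0%, 39.6 to 46.6%) and for 54.3% of the others (53.9 to 54.7%). The lower share goes with the surroundings: protein-coding genes covered on average 40.4% of the 100 kb on either side of isolated peaks and 53.3% of the same flanks of other peaks. The share at the peak exceeded that of the flanks by 2.69 points for isolated peaks and by 0.999 points for the others, and the first lies within the interval of the isolated share. Relative to their surroundings isolated peaks were thus not shown to avoid genes. Empty flanks were common, with 220 isolated peaks (28.6%, 25.5 to 31.9%) more than 100 kb from any protein-coding gene, against 10.9% of the others (10.6 to 11.1%). More than 500 kb away were 42 (5.46%, 4.07 to 7.30%) against 0.526% (0.469 to 0.590%). Flanks wholly inside genes were also more frequent, at 11.8% against 7.29%.

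**Figure D4:**
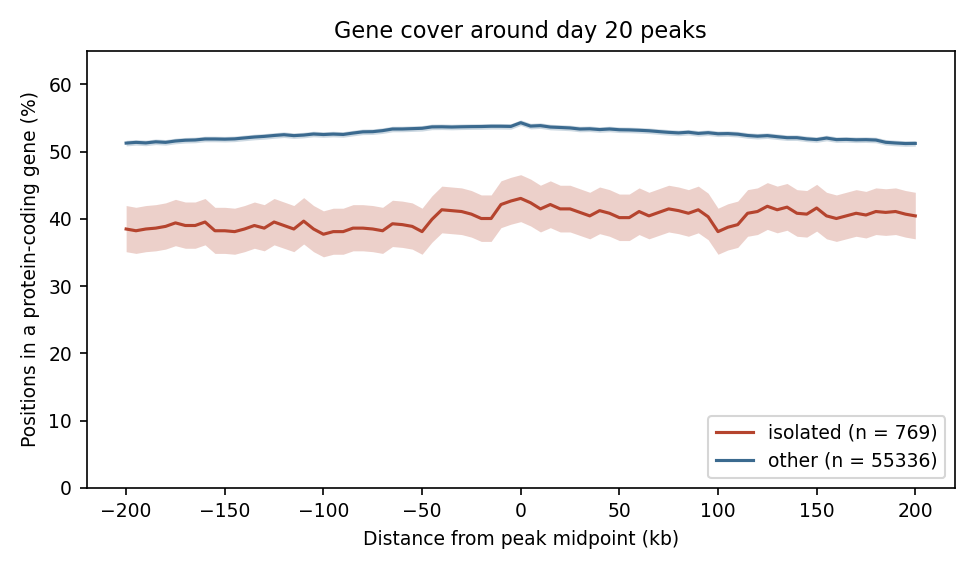
Share of positions inside a protein-coding gene, in percent, against distance in kb from the midpoint of isolated (red) and other (blue) day 20 peaks, with 95% intervals as bands. At the midpoint the shares were 43.0% and 54.3%, and the red curve stays below the blue one across the whole range of 200 kb on either side.

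Within genes, isolated peaks were spread along the body. Among 249 that lay in exactly 1 protein-coding gene with a known strand, 26.5% (21.4 to 32.3%) fell in the first of 5 equal parts of the gene counted from its start, against 22.7% (22.2 to 23.3%) of other peaks. The second part held 16.9% (12.7 to 22.0%) against 20.4% (19.9 to 20.9%), and the last 17.3% (13.1 to 22.5%) against 18.7% (18.3 to 19.3%). In each of these the isolated interval contains the value of the other peaks. The genes were longer, with a median of 188.5 kb per isolated peak and 115.3 kb per other peak.

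Of 20665 protein-coding genes on the 19 chromosomes, 315 (1.52%) had an isolated peak in the gene body, and 8727 (42.2%) had any day 20 peak. For 223 of the 315 genes (70.8%), isolated peaks were the only day 20 peaks. This share is partly fixed by the rule, since a gene shorter than 100 kb with an isolated peak can hold no other. The median length of the 315 genes was 149.2 kb, against 40.7 kb for genes with any day 20 peak. In the longest of 10 equal classes of gene length 8.76% had an isolated peak, and in the shortest class 0 of 2067 did. For any day 20 peak the shares in these classes were 83.9% and 2.08%, so a rise with length was not particular to isolated peaks. More than 1 isolated peak was found in 24 genes. Magi2, a scaffold protein of cell junctions, held 4 among 18 day 20 peaks in 1485 kb. Gpc6, a glypican that carries heparan sulphate, held 4 among 6. In Immp2l, a subunit of a mitochondrial peptidase, all 4 day 20 peaks were isolated. There were 3 in each of Macrod2 (of 9), the splicing factor gene Rbfox1 (of 7), the sarcoglycan gene Sgcd (of 6) and Nav3 (of 4). Ptprt (of 4), Ntm (of 6) and Nckap5 (of 24) held 2 each. A gene with many day 20 peaks can thus still contain an empty stretch with a lone peak.

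Lists of the cartilage programme are read against the 42.2% of all protein-coding genes with a day 20 peak and the 1.52% with an isolated one. In the list of cartilage matrix genes 21 of 29 had a day 20 peak and 0 an isolated one, and among chondrogenic transcription factors the counts were 21 and 0 of 31. Hypertrophy and mineralisation genes gave 15 and 0 of 23, WNT genes 32 and 0 of 43, enzymes and readers of 5-methylcytosine 12 and 0 of 19, and fibroblast and mesenchymal genes 16 and 0 of 26. Of 37 TGF-beta and BMP genes, 30 had a day 20 peak and 1 an isolated one. This was Acvr2a, an activin receptor, whose sole day 20 peak (548 bp, chromosome 2, 48832239 to 48832786) had its nearer neighbour 252.3 kb away. With a background of 1.52% of genes, counts of 0 or 1 in lists of this size are no result about the lists. None of the peaks within the genes most tied to cartilage was isolated. Of all day 20 peaks on the 19 chromosomes 1.37% were, so 0 among so few peaks is no result about these genes. The distances of these peaks to their nearer neighbours are read against the median of 7.14 kb for other peaks, which several of them exceeded. The 1 day 20 peak in Sox9, the master regulator of chondrogenesis, had its neighbour at 0.942 kb, and that of Col2a1, the main cartilage collagen, at 23.8 kb. All 28 in Runx2, which drives hypertrophy, had one within 16.7 kb, and the 4 in Acan, which encodes aggrecan, within 24.2 kb. Col10a1, the collagen of hypertrophic cartilage, had 1 peak with a neighbour at 6.86 kb. Among the TET genes the largest distance was 24.2 kb, in Tet1, with 9.45 kb in Tet3 and 4.50 kb in Tet2.

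The share of genes with an isolated peak was highest, of all lists, in the 2 of nervous system genes. Of 46 genes of neuronal adhesion and guidance, 19 had a day 20 peak (41.3%, against 42.2% of all genes and 83.9% in the longest length class). An isolated one was found in 9 (19.6%, against 1.52% of all genes and 8.76% in that class). The median gene of this list was 832.8 kb long, against 187486 bp in that class. The class is therefore no match for the length of this list. By width the first was the netrin receptor gene Unc5c (561 bp, of 3 day 20 peaks in the gene). Tenm3, a teneurin, followed (502 bp, of 14), then the presynaptic neurexin Nrxn3 (497 bp, its only one) and the contactin Cntn1 (478 bp, its only one). Of 35 glutamate and GABA receptor genes, 15 had a day 20 peak and 5 an isolated one (14.3%), at a median length of 184.4 kb. Among them, 3 encode glutamate receptor subunits, Grik3 (690 bp), Grin2b (646 bp) and Grin3a (458 bp). For Grik3 and Grin3a it was the only day 20 peak. The lists were not matched on length, and how far gene length accounts for these counts was not tested.

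Of the other lists, type II and classical cadherins had 1 of 23 and non-clustered protocadherins 1 of 10, Pcdh15 (360 bp), a tip-link protein of hair cells. Markers of other cell types were near the background, with 1 of 20 haematopoietic and immune genes (Itgax) and 0 of 19 liver genes. Numbered Zfp zinc finger genes had 6 of 360 (1.67%), by width Zfp871, Zfp266 (589 bp), Zfp74 and Zfp454 (493 bp) first. Each of the 6 had no other day 20 peak, which the rule fixes in advance because all 6 genes are shorter than 100 kb. Olfactory receptor genes had a day 20 peak in 6 of 1104 (0.543%) and an isolated one in 0, and vomeronasal receptor genes had neither in 354. These genes are short, with median lengths of 0.95 and 0.96 kb. In the shortest class of gene length, with a median of 948 bp, 2.08% had a day 20 peak and 0 of 2067 an isolated one. The absence of isolated peaks is thus no result about these 2 families.

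The most isolated peaks stood in stretches of several megabases. The extreme was a peak of 892 bp on chromosome 12 (67059086 to 67059977) in Mdga2, which encodes a synaptic membrane protein, with neighbours 2168 and 7859.9 kb away. An unassigned peak on chromosome 15 (46939298 to 46939740, 443 bp) followed at 2152 kb, 640.9 kb from Csmd3. In Chl1, a neural cell adhesion gene of the L1 family, a peak of 338 bp (chromosome 6, 103648983 to 103649320) had neighbours at 2036 and 4425 kb. Next was an unassigned peak of 380 bp on chromosome 2 (88571899 to 88572278), 11.5 kb from the olfactory receptor gene Olfr1188, with its nearer neighbour at 1913 kb. Another of 615 bp on chromosome 3 lay 10.2 kb from Cth, a gene of cysteine synthesis, with its neighbour at 1851 kb. A peak of 533 bp in Guf1, a mitochondrial translation factor gene, came sixth with 1711 kb. Rank 7 lay on chromosome 18. The last 3 of the first 10 were unassigned, with Ndn, Fam174a and Slc10a2 as nearest genes at 234.1, 116.6 and 1637 kb.

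Peaks shared with the chondroprogenitor list were few but included several of the most isolated. Of the 769 isolated peaks, 13 overlapped a day 0 peak (1.69%, 0.991 to 2.87%), against 0.822% of the others (0.750 to 0.901%), a difference of 0.868 points (0.164 to 2.05). Counts of 13 leave this interval close to 0. Among the 53 peaks whose nearer neighbour was over 500 kb away, 6 overlapped a day 0 peak (11.3%, 5.29 to 22.6%). At 200 to 500 kb it was 3 of 212 and at 100 to 200 kb 4 of 504 (0.794%, 0.309 to 2.02%). The limits of these distance classes were set after the data had been seen.

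The 6 were the peaks in Mdga2, Chl1 and 2210408I21Rik (321 bp), and unassigned peaks of 245, 242 and 229 bp, nearest to Pou4f1, Fam174a and Bcl11a. That of 229 bp was the second narrowest of all isolated peaks. The remaining 7 were all unassigned. The widest was 886 bp on chromosome 15 (75086172 to 75087057), 21.1 kb from Ly6c2, and the next of 688 bp (75293780 to 75294467) was its direct neighbour in the list, 206.7 kb on and 21.5 kb from Ly6f, in a cluster of Ly6 surface protein genes. Others of 687, 463, 424, 411 and 398 bp were nearest to or in 4933412E24Rik, Nbea, Akr1c12, 4930467E23Rik and Pum2. Only 3 of the 13 had an assigned gene.

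All 15 day 0 peaks overlapped by these 13 lay wholly inside the day 20 peak. No such share for other peaks stands beside this count, so it is not read as a trait of isolated peaks. The 15 day 0 peaks had a median width of 167 bp. The day 20 peak was a median of 2.10 times as wide, against 4.78 times over the 497 pairs at other peaks. Day 20 peaks with a day 0 overlap had a median of 411 bp (321 to 687) when isolated and 709 bp (683 to 748) otherwise. The ratios thus also carry the narrower day 20 width of isolated peaks. In Mdga2 the day 20 peak contained 2 day 0 peaks, of 537 and 175 bp. The peak near Ly6c2 also contained 2, of 335 and 433 bp. Apart from those overlapped, a day 0 peak within 100 kb was found at 14 of the 769 isolated peaks. The day 0 list held only 1050 peaks in all, so most stretches of this size hold none. The same count was not made around other day 20 peaks, and the low number is no result about these surroundings.

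**Figure D5:**
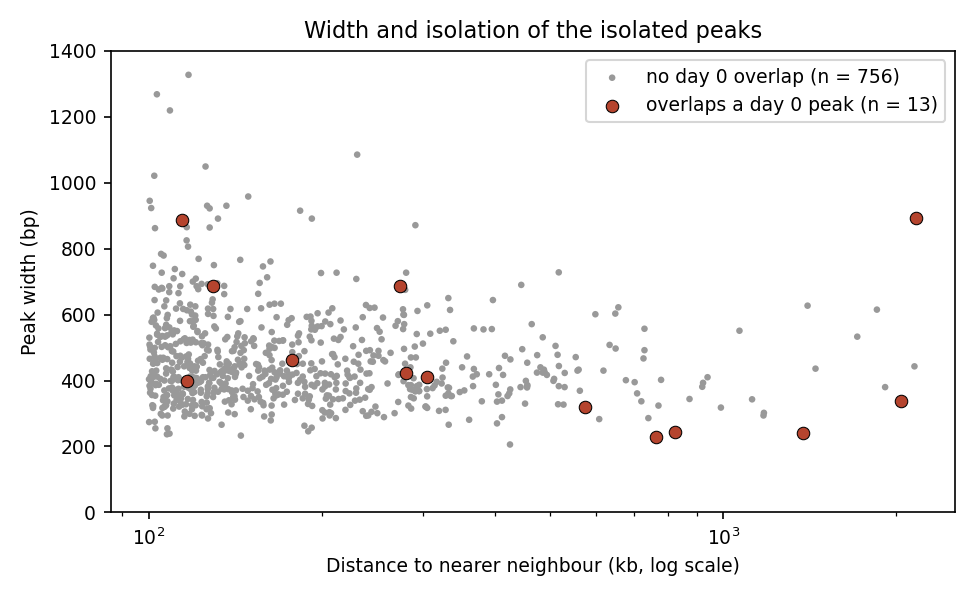
Width in bp of each of the 769 isolated peaks against the distance in kb (log scale) to its nearer neighbour, with the 13 that overlap a day 0 peak in red. The widest peaks, of over 1000 bp, lie left of 231 kb, and 6 of the 13 red points lie beyond 500 kb.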

How the data were processed

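The merged day 0 and day 20 peak lists of 5hmC-captured DNA from ATDC5 cells were used. Per the file headers, the authors kept peaks with a 10-fold enrichment in merged samples, so replicates were pooled. The reference for that fold and the use of the day 19 library in the day 20 list are not stated in the sources used here. Per the submitters' processing notes, the build was GRCm38 (mm10), and MACS 1.4.2, BWA, cutadapt and FastQC were among the tools. Values are deposited start and end positions in bp and an assigned gene.

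Distances ran from the end of one peak to the start of the next. The 3 rows without a readable end counted as neighbours at their start and had no width. The first and last rows of a chromosome were left out as members. Gene positions came from RefSeq GRCm38.p6, and starts and promoter sequences from its promoter table, where chromosome 18 was not used here. Starts of some genes on the other chromosomes were also absent from it. For a gene with several starts, the window with the start inside a peak and then the largest overlap was taken, and for all genes the first listed. Of 372 assigned accessions, 364 matched. Peak sequences outside promoters were not used here.

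Shares carry Wilson intervals, their differences Newcombe intervals, and medians intervals from binomial ranks. Peaks of 1 pooled list are not replicates, so no test was run. The 13 gene lists and 3 families, the members and the alternatives were chosen with earlier results of these data known. Named were the 10 widest and 10 most isolated peaks, those overlapping day 0, the 10 widest within 1 kb of a start, the 5 on each side of the limit, the 10 genes with most isolated peaks, 8 fixed genes and up to 4 members a list, of which 1 is not reported here. Peaks printed with their promoter, the longest run and the narrowest peak were picked with their values in view. On simulated rows, 361 of 361 planted isolated peaks were found, with 0 wrong calls. These rows had no gap just below the limit, no overlaps and every end readable. They therefore check the calculation of the rule only. Alternatives covered the distance limit and measure, chromosomes, merging, neighbours, comparison group, width and gene boundaries. Python 3.11.15, numpy 2.4.6, pandas 2.3.3, scipy 1.17.1 and matplotlib 3.10.9 were used.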

Additional observations from a re-analysis of the deposited data

Results flagged for a closer look

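The X chromosome lay outside the rule that chose the isolated peaks. There, 80 of 588 day 20 peaks (13.6%, 11.1 to 16.6%) were over 100 kb from both neighbours, with a median width of 442.5 bp, and 41 of the 80 had an assigned gene. It is listed because these peaks belong to none of the comparisons above. The difference from the 1.37% of chromosomes 1 to 19 was not tested.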

How the results depend on the processing

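No difference between isolated and other peaks changed direction under any alternative. Counts, median widths and shares are positive by nature, so they could not change direction. Of the 89 alternative values in all, 34 (those on differences in shares) were added after seeing the data. In total, 67 stayed within the interval of the reported value or, for the number of peaks, within 1.5 times. With 50 kb in place of 100 kb there were 2442 isolated peaks, with a median width of 458 bp (141 bp below the others, a difference of -141), a gene assigned in 53.4% (difference -7.24 points), a midpoint in a protein-coding gene in 47.2% (difference -7.25) and a day 0 overlap in 1.31% (difference 0.498). With 200 kb there were 265, with a median of 412 bp (difference -181), 41.5% assigned (difference -18.9), 35.8% in a protein-coding gene (difference -18.4) and 3.40% overlapping a day 0 peak (difference 2.57). The width difference was -178 bp with peaks within 1 kb merged, -153 bp with other peaks weighted by chromosome, -118 bp against other peaks over 10 kb from both neighbours and -132 bp among peaks under 1000 bp. In genes of any type lay 51.6%, and in protein-coding genes with 5 kb added 50.6%. Weighting and the comparison group cannot alter values of the isolated peaks alone and were run on differences only. Replicates could not be left out in turn, since each list pools its libraries. No paired analysis was possible because the lists carry no replicate columns. Depth is unknown, so a peak below the authors' 10-fold limit cannot be told from no 5hmC, and a peak is isolated only with respect to that limit.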
